A study of Homo sapiens with 6 samples.

Results

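The Hippo pathway and its response genes were followed in MDA-MB-231 cells through 10 genes, YAP1, WWTR1, CCN1, CCN2, ANKRD1, AMOTL2, LATS1, LATS2, TEAD1 and AJUBA. Their probes were those whose accession in the scanner output is a RefSeq transcript of 1 of these genes. That gave 11 of the 50599 probes on the array, 2 for LATS1 and 1 for each other gene, out of 21743 genes with a symbol. MDA-MB-231 is a human triple-negative breast cancer line of mesenchymal form, which is known to carry an inactivated NF2 gene. Cells received, by reverse transfection, a precursor of hsa-miR-205-5p, a precursor of hsa-miR-214-3p or, as the control, a scrambled precursor, and total RNA was taken 72 h after transfection. Each group had 2 one-colour Agilent arrays, all 6 on 1 slide, and no other treatment set the groups apart. The labels do not say that replicates came from separate cultures, so the p-values below measure the spread between these samples, which may be technical. All cells were of 1 line, and the RNA of whole wells was measured, so fewer cells of a kind and less RNA per cell cannot be told apart.

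In the Hippo cascade, the kinases MST1 and MST2 (genes STK4 and STK3) with SAV1 activate LATS1 and LATS2, which phosphorylate the coactivators YAP (YAP1) and TAZ (WWTR1) and keep them out of the nucleus. Unphosphorylated YAP and TAZ enter the nucleus, bind TEAD factors and raise transcription of genes such as CCN1, CCN2 and ANKRD1, which serve as readouts of the pathway. The pathway is known for restraining growth and for its response to cell contact and stiffness, and YAP and TAZ are known to be active in MDA-MB-231. The arrays measured RNA, and phosphorylation and location of YAP and TAZ were not measured.

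The sequences of both transfected miRNAs are shown because they are what set the groups apart, with the seed (bases 2 to 8) in capitals. They are from RefSeq on GRCh38.p14, at chr1:209432166-209432187 on the plus strand for hsa-miR-205-5p and at chr1:172138816-172138837 on the minus strand for hsa-miR-214-3p. The seeds differ.
hsa-miR-205-5p: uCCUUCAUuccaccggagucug
hsa-miR-214-3p: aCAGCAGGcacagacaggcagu

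The promoters of CCN2 and ANKRD1 are shown because both are direct TEAD target genes in general knowledge and their windows hold the most copies of the TEAD core motif among the members. Each window runs from 250 bases before to 50 bases after the start of the gene, and the motif, GGAATG or CATTCC so that both strands are searched, is in capitals. The CCN2 window (RefSeq, GRCh38.p14, chr6:131951323-131951622, minus strand) held 3 copies and the ANKRD1 window (chr10:90921038-90921337, minus strand) held 2.
CCN2: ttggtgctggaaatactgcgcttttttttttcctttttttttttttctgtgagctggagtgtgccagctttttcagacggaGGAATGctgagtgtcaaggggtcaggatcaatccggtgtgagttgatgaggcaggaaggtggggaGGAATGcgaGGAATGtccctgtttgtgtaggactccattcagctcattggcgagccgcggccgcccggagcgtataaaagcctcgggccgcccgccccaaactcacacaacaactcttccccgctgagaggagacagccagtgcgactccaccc
ANKRD1: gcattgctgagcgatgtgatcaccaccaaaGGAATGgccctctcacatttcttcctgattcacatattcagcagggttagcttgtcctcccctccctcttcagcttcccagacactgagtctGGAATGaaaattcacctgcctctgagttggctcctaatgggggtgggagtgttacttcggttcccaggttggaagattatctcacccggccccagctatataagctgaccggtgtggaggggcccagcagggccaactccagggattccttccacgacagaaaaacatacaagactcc
Of 35116 such windows of 300 bases over all genes, 4928 (14.0%) held the motif, 478 (1.36%) held 2 or more copies and 44 (0.125%) held 3 or more. A window was listed for 8 of the 10 members, some with more than 1, and for 6 of them a window held it: YAP1, AMOTL2, LATS2 and AJUBA with 1 copy each, besides CCN2 and ANKRD1. Counted by window, as in the share over all genes, 6 of the 12 member windows held it. These matches describe the letters of the windows and are not sites of measured binding.

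Values are given as the log2 of the processed signal minus the 75th percentile of the same array on the log2 scale, so that 0 stands for a spot at that percentile. The share of spots well above background was 35.4% to 42.2% per array, with 0 spots saturated. The test covered 18468 probes, those above background on both arrays in 1 or more groups, with limma across the 6 arrays and p-values adjusted over these probes by Benjamini-Hochberg. A probe was called when its adjusted p was under 0.05 and its change at least 2-fold. Of the 11 member probes, 9 were tested, 1 for each gene except LATS1. The 2 arrays of a group limit the precision, and the root mean square difference between them over the tested probes was 0.67 for the scrambled control, 0.51 for hsa-miR-205-5p and 0.34 for hsa-miR-214-3p.

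With hsa-miR-205-5p, CCN2 was 2.80-fold higher than with the scrambled control, the 1 member called in that comparison, and it was also 2.27-fold higher than with hsa-miR-214-3p. AJUBA, ANKRD1, AMOTL2 and TEAD1 were 1.55 to 1.98 times as high with hsa-miR-205-5p as with the control, with adjusted p under 0.05 but under the fold limit. YAP1 itself was 0.81 times the control level (adjusted p = 0.206, limma), and WWTR1 was 1.23 times (adjusted p = 0.311, limma). With hsa-miR-214-3p no member was called against the control. With either precursor, 7 of the 9 tested members read higher on both precursor arrays than on both control arrays. So did 33.6% of all tested probes with hsa-miR-205-5p and 26.8% with hsa-miR-214-3p, in comparisons that share the control arrays. For hsa-miR-214-3p the 7 include YAP1, at 4.05 on both arrays against 4.03 on control replicate 2.

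**Figure D1:**
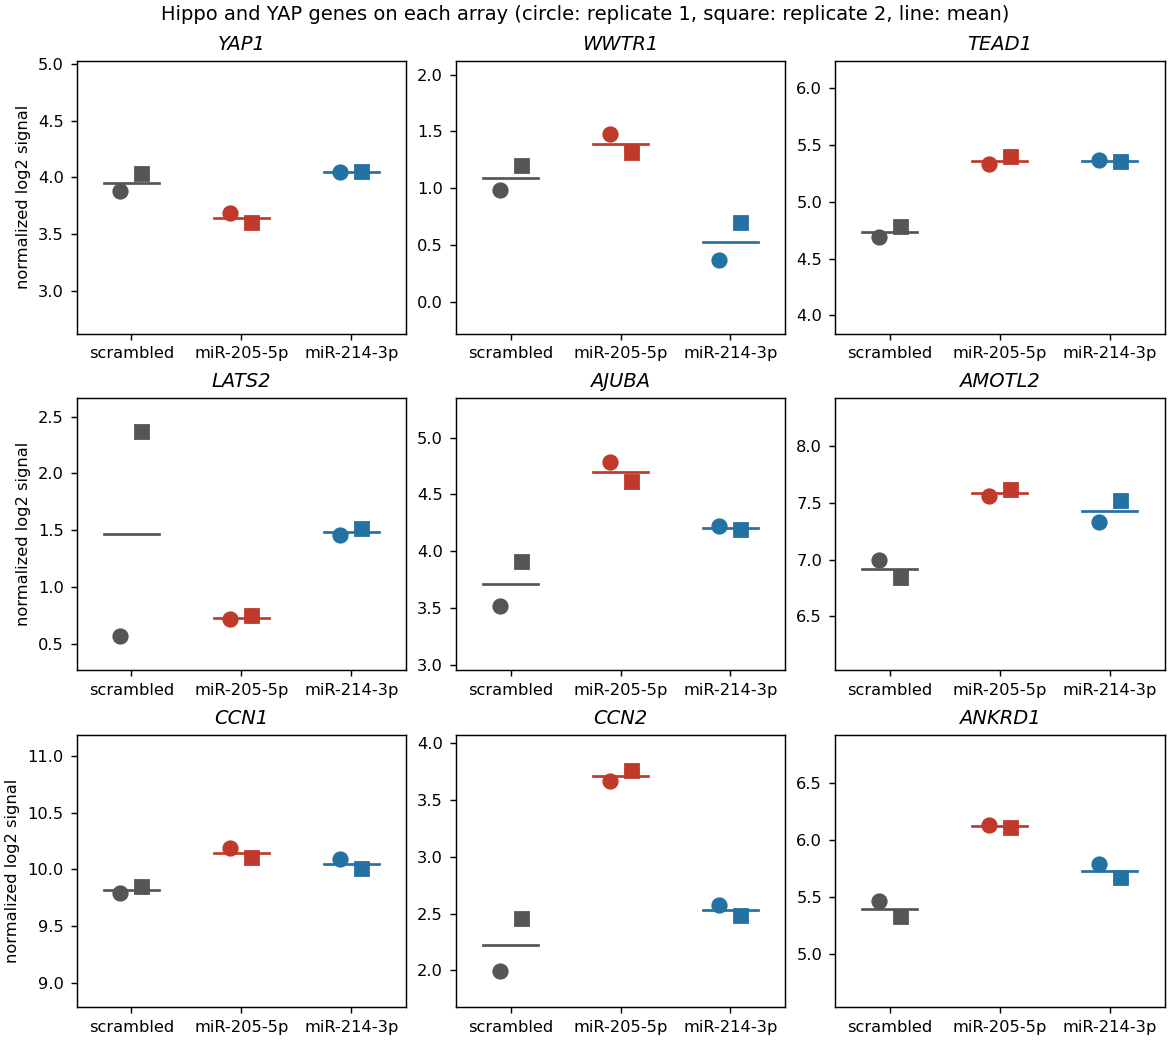
Normalized log2 signal (y axis) of the 9 tested members on each of the 6 arrays, grouped along the x axis by transfection. Circles are replicate 1, squares replicate 2 and lines the group mean, and every panel spans the same number of log2 units. The CCN2 arrays with hsa-miR-205-5p (3.67 and 3.76) lie above all others, and the control arrays of LATS2 (0.57 and 2.36) lie far apart.

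Among the transducers, YAP1, the coactivator that LATS kinases restrain, read 3.88 and 4.03 on the control arrays, 3.69 and 3.60 with hsa-miR-205-5p and 4.05 on both arrays with hsa-miR-214-3p. The hsa-miR-205-5p arrays were the lowest of the 6, and the hsa-miR-214-3p arrays lay just above the control. The log2 fold change of YAP1 with hsa-miR-205-5p was −0.31 (SE 0.15, 95% interval −0.70 to 0.08, adjusted p = 0.206 from limma). It was 0.09 with hsa-miR-214-3p (−0.29 to 0.48, adjusted p = 0.758) and −0.40 between the precursors (−0.79 to −0.02, adjusted p = 0.0988). None of these passed the test.

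YAP1 was the member whose probe is printed in 10 spots on each array, which shows the spread within an array. Spot signals ran from 681 to 814 with a median of 731 on control replicate 1 and from 322 to 1150 with a median of 1030 on control replicate 2. On the hsa-miR-205-5p arrays they ran from 468 to 592 (replicate 1) and from 320 to 468 (replicate 2). On the hsa-miR-214-3p arrays they ran from 713 to 851 and from 574 to 636, before scaling. The coefficient of variation over spots was 3.22% to 10.0% on 5 arrays and 26.5% on control replicate 2. There 1 spot at 322 lay far below the others without being marked as an outlier. Most spots of that array read above the hsa-miR-214-3p arrays (4.05 after scaling). The place of YAP1 with hsa-miR-214-3p just above the control thus depends on that 1 spot. With the median over spots in place of the mean, which was chosen after these spots were seen, the log2 fold change of YAP1 with hsa-miR-205-5p was −0.36 (adjusted p = 0.199 from limma).

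**Figure D2:**
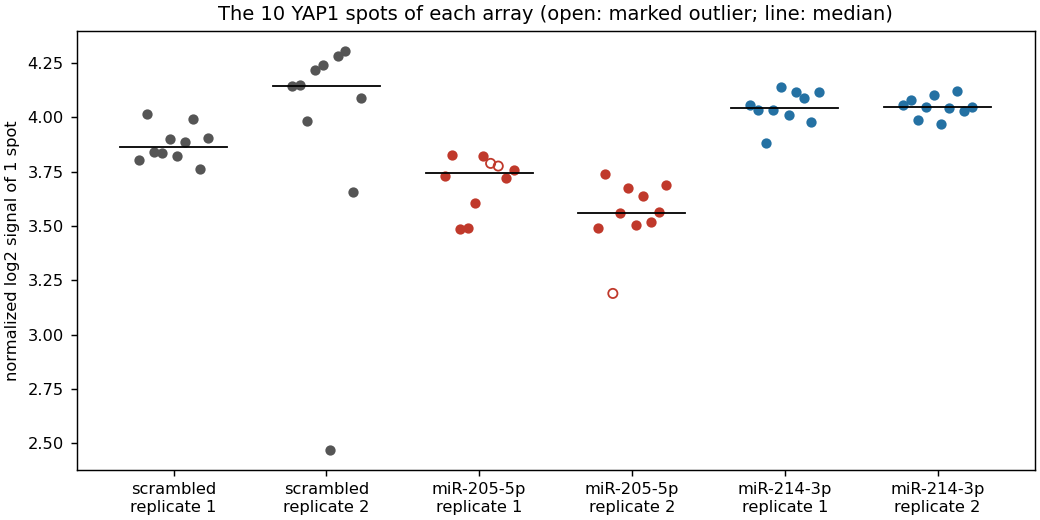
Normalized log2 signal (y axis) of each of the 10 YAP1 spots on each of the 6 arrays (x axis). Open circles are spots marked as outliers and lines are medians over the spots. One control replicate 2 spot lies at 2.47, and spots of the hsa-miR-205-5p arrays mostly lie under those of the other arrays.

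WWTR1, which encodes the YAP paralog TAZ, read 0.99 and 1.20 on the control arrays, 1.47 and 1.31 with hsa-miR-205-5p and 0.37 and 0.69 with hsa-miR-214-3p. The 3 groups did not overlap, with hsa-miR-205-5p highest and hsa-miR-214-3p lowest. Between the precursors the log2 difference was 0.86 (SE 0.19, 95% interval 0.37 to 1.35, adjusted p = 0.026 from limma), a 1.82-fold difference that was under the fold limit. Without any 1 of the 4 precursor arrays its adjusted p was between 0.0801 and 0.167. Against the control the log2 fold changes of WWTR1 were 0.30 (−0.19 to 0.79, adjusted p = 0.311) and −0.56 (−1.05 to −0.08, adjusted p = 0.176), and with arrays scaled to their median the first was −0.09.

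TEAD1, a DNA-binding partner of YAP and TAZ, read 4.69 and 4.78 on the control arrays, 5.33 and 5.39 with hsa-miR-205-5p and 5.37 and 5.35 with hsa-miR-214-3p. Both precursor groups lay above the control and overlapped each other. The log2 fold change was 0.63 with hsa-miR-205-5p (SE 0.15, 95% interval 0.25 to 1.00, adjusted p = 0.0414 from limma), and it was 0.63 with hsa-miR-214-3p (0.25 to 1.00, adjusted p = 0.0932), under the fold limit in both. These comparisons share their control arrays. Between the precursors it was 0.00 with an interval of −0.37 to 0.38, so a difference of up to 0.38 in either direction lay within the error.

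The kinase LATS2 read 0.57 and 2.36 on the control arrays, 0.72 and 0.74 with hsa-miR-205-5p and 1.46 and 1.51 with hsa-miR-214-3p. Both precursor groups were tight and lay between the control arrays, which were 1.80 apart. Only 2.33% of the tested probes had a gap between the control arrays as wide as that. The log2 fold change of LATS2 with hsa-miR-205-5p was −0.74 (SE 0.56, 95% interval −2.15 to 0.67, adjusted p = 0.378 from limma). Without control replicate 1 it was −1.64, and without control replicate 2 it was 0.16. No weight is put on the p-values of these fits, since the spread of the single control array left is taken there from the precursor arrays, which were tight. With hsa-miR-214-3p it was 0.02 (−1.39 to 1.43, adjusted p = 0.988), and −0.88 and 0.92 without control replicate 1 and 2. Between the precursors, whose LATS2 arrays did not overlap, the log2 difference was −0.76 (95% interval −2.17 to 0.65, adjusted p = 0.332), where the spread is estimated from the control arrays too. From the 4 precursor arrays alone the adjusted p of that difference was 0.00929, under the fold limit. The direction of LATS2 against the control thus differed between the control arrays.

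LATS1, the other LATS kinase, was not tested. Its NM_004690 probe was not well above background on any array, at −4.32 to −2.69, and its NM_001270519 probe was above it on control replicate 2 alone, at −1.68 against −3.68 to −2.57 on the other arrays. These probes give a bound on a dim signal and no level.

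Among the upstream regulators, AJUBA, a LIM protein known to bind LATS kinases and hold them off YAP, read 3.51 and 3.90 on the control arrays, 4.79 and 4.61 with hsa-miR-205-5p and 4.22 and 4.19 with hsa-miR-214-3p. The groups did not overlap, and hsa-miR-205-5p was the highest. Its log2 fold change with hsa-miR-205-5p was 0.99 (SE 0.20, 95% interval 0.50 to 1.48, adjusted p = 0.0265 from limma), 1.98-fold and so just under the fold limit. Without control replicate 2 it was 1.18 (adjusted p = 0.0236), with the spread of the remaining control array taken from the precursor arrays. With hsa-miR-214-3p the log2 fold change was 0.50 (0.01 to 0.98, adjusted p = 0.217), and between the precursors 0.49 (adjusted p = 0.106).

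AMOTL2, an angiomotin family protein that binds YAP and is itself a YAP target gene, stood at 128 and 114 times the 75th percentile of the array in the control, 189 and 196 times with hsa-miR-205-5p and 161 and 183 times with hsa-miR-214-3p. Both precursor groups lay above the control. The log2 fold changes were 0.67 (SE 0.16, 95% interval 0.26 to 1.08, adjusted p = 0.0448 from limma) and 0.51 (0.09 to 0.92, adjusted p = 0.158), and between the precursors AMOTL2 differed by 0.16 (−0.25 to 0.57, adjusted p = 0.47).

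Among the response genes, CCN2 (also CTGF), a secreted matricellular protein, read 2.00 and 2.45 on the control arrays, 3.67 and 3.76 with hsa-miR-205-5p and 2.58 and 2.48 with hsa-miR-214-3p. As multiples of the 75th percentile of the array that was 3.99 and 5.48, 12.7 and 13.5, and 5.96 and 5.58. The hsa-miR-205-5p arrays stood far above the other 4, while hsa-miR-214-3p lay just above control replicate 2. CCN2 rose with hsa-miR-205-5p by 1.49 on the log2 scale (SE 0.21, 95% interval 0.97 to 2.00, adjusted p = 0.0125 from limma). Against hsa-miR-214-3p it was higher by 1.19 (SE 0.21, 0.67 to 1.70, adjusted p = 0.0128), the 1 member called there. With hsa-miR-214-3p its log2 fold change was 0.30 (−0.21 to 0.82, adjusted p = 0.436).

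The size of the CCN2 difference from the control was 1.26 to 1.72 when any 1 array was left out. The call ended without hsa-miR-205-5p replicate 1 (adjusted p = 0.0528 from limma) and without replicate 2 (0.0699). Against hsa-miR-214-3p the call ended without any 1 of the 4 precursor arrays, with adjusted p from 0.0547 to 0.1. Without hsa-miR-205-5p replicate 2, 0 probes of the whole array passed against the control by limma, where 2773 passed at an unadjusted p under 0.05 and 2-fold.

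ANKRD1, a nuclear ankyrin repeat protein of stretched muscle and a common YAP readout, read 5.46 and 5.33 on the control arrays, 6.13 and 6.11 with hsa-miR-205-5p and 5.79 and 5.67 with hsa-miR-214-3p. The groups did not overlap and stood in the same order as those of CCN2. Its log2 fold change with hsa-miR-205-5p was 0.73 (SE 0.16, 95% interval 0.34 to 1.12, adjusted p = 0.0328 from limma), or 1.65-fold. With hsa-miR-214-3p it was 0.34 (−0.06 to 0.73, adjusted p = 0.277), and between the precursors 0.39 (0.00 to 0.78, adjusted p = 0.108).

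CCN1 (also CYR61), another matricellular protein of the CCN family, read 9.79 and 9.85 on the control arrays, 10.19 and 10.10 with hsa-miR-205-5p and 10.09 and 10.00 with hsa-miR-214-3p. Both precursor groups lay above the control by less than 0.5. The log2 fold changes of CCN1 were 0.33 (SE 0.15, 95% interval −0.05 to 0.71, adjusted p = 0.176 from limma) and 0.23 (−0.15 to 0.61, adjusted p = 0.422), and −0.06 and 0.07 with arrays scaled to their median. The CCN1 signal was 37570 to 53350 on the 6 arrays and was not saturated on any.

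**Figure D3:**
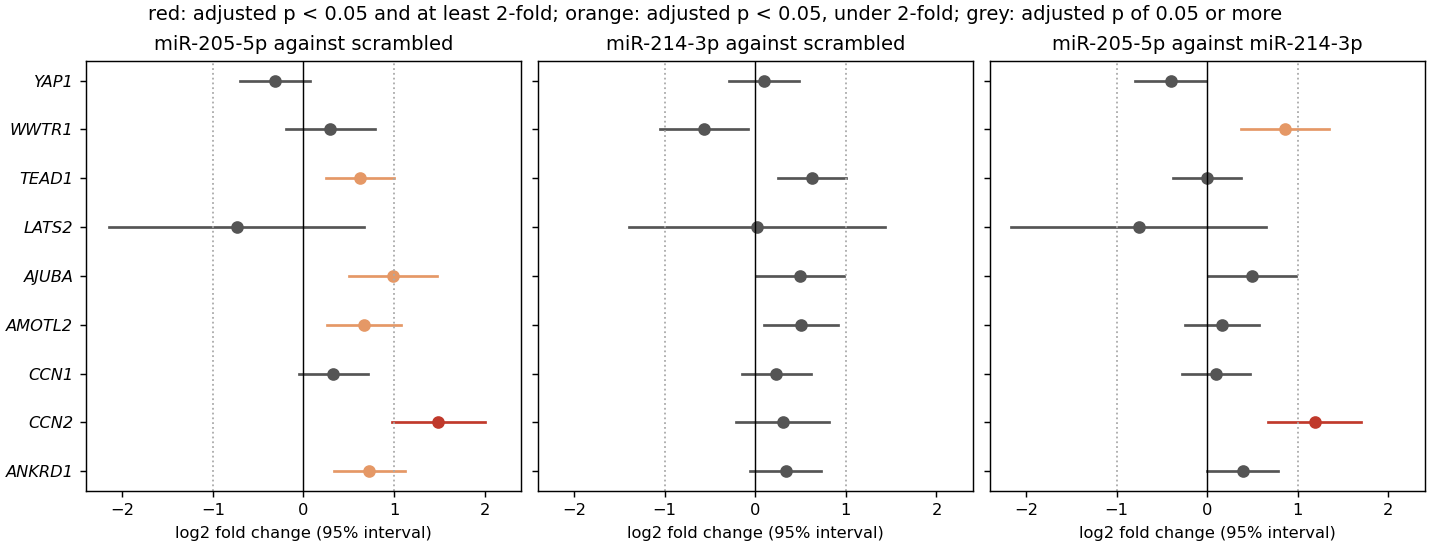
Log2 fold change (x axis) of each tested member (y axis) in the 3 comparisons, with 95% intervals from limma. Dotted lines mark 2-fold. Red marks the called probes, which is CCN2 in 2 panels, orange marks adjusted p under 0.05 with under 2-fold, and the LATS2 interval, −2.15 to 0.67 in the first panel, is the widest.

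Counted together against the control with hsa-miR-205-5p, 1 of the 9 tested members was called higher and 0 lower, where 4.14% of all tested probes were called higher and 8.05% lower. By adjusted p alone 5 of 9 passed, against 19.3% of all probes, and this count depended on the scaling. The groups did not overlap for 7 members in the higher direction (33.6% of all probes) and for 1, YAP1, in the lower (28.7%). The median log2 fold change was 0.63 over the members and 0.05 over all tested probes. All members with adjusted p under 0.05 lay above the control. Without any 1 of the 4 precursor arrays AJUBA, ANKRD1, AMOTL2 and TEAD1 had adjusted p of 0.0827 to 0.172.

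With hsa-miR-214-3p, 0 of 9 members were called, where 0.991% of all tested probes were called higher and 1.68% lower. By adjusted p alone 0 passed (2.81% of all probes), and 4 had an unadjusted p under 0.05 from limma (22.6% of all probes): TEAD1, AMOTL2, AJUBA and, lower, WWTR1. By the methods' t-test 0 were called as well. The groups did not overlap for 7 members in the higher direction (26.8% of all probes) and for 1, WWTR1, in the lower (28.5%). Among the 7, YAP1 lay above control replicate 2 by a narrow margin that depended on 1 control spot. The median was 0.30 over the members and −0.01 over all probes. This comparison uses the same control arrays as the one above.

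In the comparison of the precursors with each other, CCN2 was called higher with hsa-miR-205-5p and 0 members were lower, where 8.37% of all tested probes were called higher and 11.5% lower. By adjusted p alone 2 passed, CCN2 and WWTR1 (31.8% of all probes). With only the 4 precursor arrays in the fit 6 members passed by adjusted p alone (47.8% of all probes): CCN2, LATS2, WWTR1, AJUBA, YAP1 and ANKRD1, with adjusted p from 0.00516 to 0.0473, and of these CCN2 alone was at least 2-fold. Groups did not overlap for 6 members in the higher direction (43.2% of all probes) and for 2, YAP1 and LATS2, in the lower (35.2%). The median was 0.16 over the members and 0.09 over all probes.

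The wider pathway was read from a list of 25 further Hippo cascade genes, measured by 36 probes, of which 28 (22 genes) were tested. With hsa-miR-205-5p 5 of these 28 probes were called higher and 1, WWC2, lower against the control, where 4.14% and 8.05% of all tested probes were. The 5 higher were SAV1, NF2 and all probes of PTPN14, so 1 gene is counted repeatedly and the 5 are not separate genes. The median log2 fold change of the 28 probes was 0.28 beside 0.05 over all tested probes. SAV1, the scaffold of the MST kinases, read 2.32 and 2.35 on the control arrays, 4.14 and 4.06 with hsa-miR-205-5p and 2.61 and 2.57 with hsa-miR-214-3p. It rose 3.40-fold with hsa-miR-205-5p (log2 1.77, SE 0.15, adjusted p = 0.008 from limma) and was 2.85-fold higher than with hsa-miR-214-3p (adjusted p = 0.00415).

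PTPN14, a phosphatase that binds YAP and is known to restrain it, had 3 probes, and all 3 rose with hsa-miR-205-5p against the control, by 1.25, 1.34 and 1.48. The calls of the first 2 were lost under 9 and 10 of 22 alternatives, among them normexp for the first (0.35, adjusted p = 0.103), and that of the third under 3. The brightest read 2.46 and 2.36 on the control arrays, 3.92 and 3.86 with hsa-miR-205-5p and 2.04 and 1.85 with hsa-miR-214-3p, and was called with an adjusted p of 0.00884 from limma. NF2, whose product merlin is an upstream activator of the cascade, read −0.45 and −1.41 on the control arrays, 0.47 and 0.30 with hsa-miR-205-5p and 0.31 and 0.58 with hsa-miR-214-3p. Both precursor groups lay above the control. NF2 was called with hsa-miR-205-5p (log2 1.32, adjusted p = 0.0499 from limma) and not with hsa-miR-214-3p (log2 1.38, adjusted p = 0.0982). Between the precursors NF2 differed by −0.06 (adjusted p = 0.903). The NF2 call was lost under 14 of 22 alternatives, normexp among them (0.57, adjusted p = 0.0556).

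WWC2, of the KIBRA family of upstream LATS activators, read 0.55 and 0.04 on the control arrays, −1.51 and −1.17 with hsa-miR-205-5p and −0.05 on both arrays with hsa-miR-214-3p. It entered the test through the other groups, since neither hsa-miR-205-5p array had it well above background, so its lower call says little by itself. Its own signal on these arrays was above the lowest signal well above background there, so its bound equals its fitted fold. On the scale used here it was at least 3.10-fold lower than the control (adjusted p = 0.0136 from limma) and at least 2.45-fold lower than with hsa-miR-214-3p (adjusted p = 0.0146). With normexp, which corrects the background in another way, the log2 difference of WWC2 was −0.64 against the control and −0.29 between the precursors (adjusted p = 0.192), so neither call nor bound held there. Against the control WWC2 missed the threshold without any 1 precursor array, with adjusted p between 0.0509 and 0.0598.

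With hsa-miR-214-3p 1 of the 28 Hippo cascade probes was called higher against the control and 0 lower, where 0.991% and 1.68% of all tested probes were, with a median of 0.06. RASSF1, a scaffold known to bind the MST kinases, read 5.05 and 5.17 on the control arrays, 5.45 and 5.28 with hsa-miR-205-5p and 6.58 and 6.50 with hsa-miR-214-3p. It rose 2.69-fold with hsa-miR-214-3p (log2 1.43, SE 0.16, adjusted p = 0.0304 from limma) and was at 0.25 with hsa-miR-205-5p (adjusted p = 0.302). The RASSF1 call with hsa-miR-214-3p was lost under 9 of 22 alternatives.

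Between the precursors 6 of the 28 Hippo cascade probes were called higher with hsa-miR-205-5p and 5 lower, where 8.37% and 11.5% of all tested probes were. The lower ones were STK4, STK38, RASSF1 at −1.18 (adjusted p = 0.00726 from limma), WWC2 and a probe of TAOK2, a kinase upstream of the cascade. On both hsa-miR-205-5p arrays WWC2 and this TAOK2 probe were near background, and they entered the test through the other groups, so the count of 5 is not read against the share of all probes. TAOK2 read −2.99 and −2.20 with hsa-miR-205-5p and −1.08 and −0.92 with hsa-miR-214-3p, at least 1.53-fold lower (adjusted p = 0.0156), so a 2-fold difference was not measured, and with normexp the log2 difference was −0.29. The other TAOK2 probe, above background on all arrays, differed by 0.09 (adjusted p = 0.731). All PTPN14 probes were among the 6 higher, so the 6 are not separate genes. The highest were 2 PTPN14 probes, at 1.94 (adjusted p = 0.00384 from limma) and 1.64 (adjusted p = 0.0132). The lowest were a probe of the MST1 kinase gene STK4, at −2.51 (adjusted p = 0.0377), and the probe of STK38, an NDR kinase of the LATS family, at −2.31 (adjusted p = 0.0347). That STK4 probe read 0.74 and 2.81 on the control arrays and STK38 0.55 and 2.41, so for both the control arrays lay as far apart as those of LATS2, with replicate 1 the lower. The other STK4 probe differed by 0.11 between the precursors (adjusted p = 0.665), so the STK4 probes disagree.

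Of the TEAD family and cofactor list, 6 genes outside the members with 8 probes, 6 probes were tested, and their median log2 fold change was −0.05 with hsa-miR-205-5p and 0.19 with hsa-miR-214-3p. VGLL4, a cofactor that competes with YAP for TEAD, read 2.75 and 2.97 on the control arrays, 1.10 and 1.01 with hsa-miR-205-5p and 2.80 and 2.71 with hsa-miR-214-3p. It fell by 1.80 on the log2 scale with hsa-miR-205-5p (SE 0.16, adjusted p = 0.008 from limma) and was lower than with hsa-miR-214-3p by a log2 difference of −1.70 (adjusted p = 0.0041). Its second probe was at −0.60 against the control (adjusted p = 0.0737) and −0.34 between the precursors, so the probes differ in size. VGLL3, another TEAD cofactor, read −0.36 and −0.80 with hsa-miR-205-5p and −1.80 and −2.38 with hsa-miR-214-3p, where it was well above background on replicate 1 and not on replicate 2. Between the precursors the log2 difference was 1.51 (adjusted p = 0.0132), and with normexp it was 0.42 (adjusted p = 0.0437) and under the fold limit.

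Of 17 further YAP response genes with 23 probes, 21 probes (15 genes) were tested. With hsa-miR-205-5p 4 of the 21 were called higher and 0 lower, where 4.14% and 8.05% of all tested probes were. These 4 were the 3 PTPN14 probes, which both lists hold, and NUAK2. NUAK2, a kinase and YAP target gene, read 2.13 and 1.94 on the control arrays, 3.36 and 3.67 with hsa-miR-205-5p and 1.41 and 2.23 with hsa-miR-214-3p. It rose 2.79-fold with hsa-miR-205-5p (log2 1.48, SE 0.31, adjusted p = 0.03 from limma) and was 3.24-fold higher than with hsa-miR-214-3p (adjusted p = 0.0143). Over the list the median log2 fold change with hsa-miR-205-5p was 0.24, against 0.05 over all tested probes. With hsa-miR-214-3p it was 0.18, against −0.01 over all probes. Between the precursors it was −0.42, against 0.09 over all probes, so there most of the list did not go the way of CCN2.

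With hsa-miR-214-3p 1 of the 21 YAP response probes was called higher (0.991% of all tested probes), that of IGFBP3, which encodes an insulin-like growth factor binding protein, and 0 were called lower. IGFBP3 read 1.13 and 1.58 on the control arrays, 1.43 and 1.44 with hsa-miR-205-5p and 3.54 and 3.51 with hsa-miR-214-3p. It rose 4.50-fold (log2 2.17, SE 0.20, adjusted p = 0.0258 from limma), while with hsa-miR-205-5p it lay within the range of the control arrays. The IGFBP3 call against the control was lost under 9 of 22 alternatives. Between the precursors 4 of the 21 were called higher with hsa-miR-205-5p (8.37% of all tested probes), again the PTPN14 probes and NUAK2. There 2 were called lower (11.5%), IGFBP3 at −2.09 (adjusted p = 0.00403 from limma) and FOXF2, a forkhead factor, at −1.06 (adjusted p = 0.0402).

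**Figure D4:**
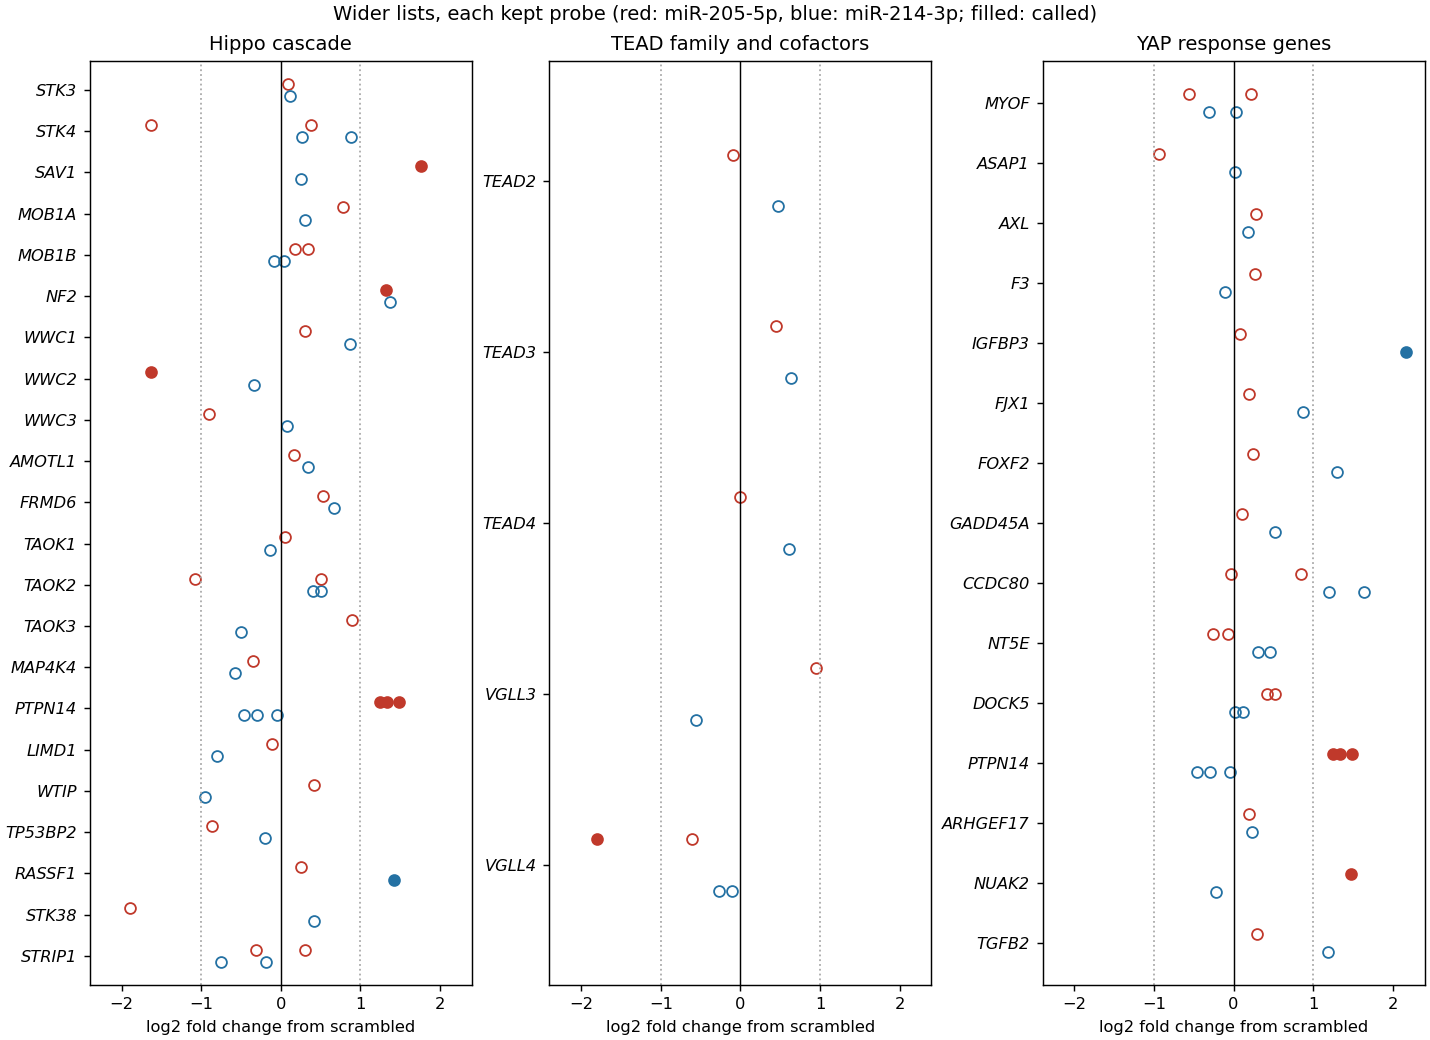
Log2 fold change against the scrambled control (x axis) of every tested probe of the 3 wider lists, 1 row per gene (y axis), in red for hsa-miR-205-5p and blue for hsa-miR-214-3p. Filled points are called and dotted lines mark 2-fold. SAV1 at 1.77 and VGLL4 at −1.80 are the outermost called red points, and IGFBP3 at 2.17 and RASSF1 at 1.43 are the called blue points.

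Many calls in the wider lists ended when 1 array was left out. With any 1 miR-214-3p array, either miR-205-5p array or control replicate 1 left out, 0 probes of the whole array were called for hsa-miR-214-3p by limma, with 1107 to 1293 at an unadjusted p under 0.05 and 2-fold, and the adjusted p of RASSF1 and IGFBP3 was then 0.0533 to 0.277. Without control replicate 2 both were called, among 1767 probes in place of 494. For hsa-miR-205-5p, without its replicate 2, SAV1, VGLL4 and the brightest PTPN14 probe had adjusted p of 0.056, 0.056 and 0.0585, with log2 fold changes of 1.80, −1.76 and 1.52. Without hsa-miR-205-5p replicate 1 these 3 probes were called. NUAK2 was not called without any 1 hsa-miR-205-5p array or any 1 control array (adjusted p = 0.0506 to 0.131), and NF2 not without any 1 precursor array or control replicate 2 (0.0563 to 0.165). The calls of STK4, STK38 and FOXF2 between the precursors ended without any 1 precursor array (adjusted p = 0.104 to 0.174). Those of SAV1 and VGLL4 ended without hsa-miR-214-3p replicate 2 (0.0546 and 0.0514), those of RASSF1 and TAOK2 without either hsa-miR-214-3p array (0.0714 and 0.0702, and 0.0812 and 0.102) and that of VGLL3 without hsa-miR-205-5p replicate 1 (0.0613) or hsa-miR-214-3p replicate 2 (0.0871). Those of WWC2, NUAK2 and the second PTPN14 probe ended without 2 or 3 of the precursor arrays taken singly (0.0636 to 0.0989), and the brightest PTPN14 probe and IGFBP3 were called without any 1 array.

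Marker genes were read against the label of the line. The markers expected in this line, VIM, CD44, EGFR and AXL, were well above background on all 6 arrays with all 7 of their probes, and the 5 probes of the hormone receptors ESR1 and PGR on none. CDH1 and EPCAM, epithelial adhesion genes expected low in this line, were above background on all 6 arrays. CDH1 read −1.09 and −1.33 on the control arrays and 0.87 and 0.64 with hsa-miR-205-5p, and rose 3.90-fold (adjusted p = 0.008 from limma). EPCAM read 0.35 and 0.83 and then 3.21 and 2.77, and rose 5.28-fold (adjusted p = 0.0088). With normexp the log2 fold change of CDH1 was 0.76, under the fold limit, and without hsa-miR-205-5p replicate 2 the adjusted p of both was 0.056. Both rose in the group in which CCN2 rose, and their part in the CCN2 result was not tested. Of 10 probes for blood and endothelial genes 1 was tested, of PECAM1, which entered the test through the control alone and read −0.41 and −0.47 there, −2.08 and −2.49 with hsa-miR-205-5p and −1.21 and −1.42 with hsa-miR-214-3p. Of the others, 2 of the 5 PTPRC probes were above background on 2 arrays each, and HBB and CDH5 were not above background on any array.

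The genes whose probes were most like CCN2 over the 6 arrays, by the root mean square difference of values centred on each probe's mean over 12632 named probes that stood above background on every array, were SEC31B (0.112), STAG2 (0.129) and DPY19L3-DT (0.134), where the median probe was at 0.679. For CCN1 they were MIPEP (0.0275), THOC3 (0.032) and LINC02265 (0.0362), with a median of 0.36. The points share arrays and scaling, so these are descriptions of likeness.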

How the data were processed

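RNA of 6 MDA-MB-231 samples was hybridised to one-colour Agilent arrays. For each array the authors deposited Agilent Feature Extraction 11.0 output, and its processed signal, an intensity with the local background taken off, was used together with the flags per spot. A series table of log2 values deposited by the authors (50739 rows, identical sorted columns) served as an alternative.

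R 4.3.3, limma 3.58.1 and, for plots, matplotlib 3.10.9 were used. Control spots and 245 to 463 outlier spots per array were dropped, repeat spots were averaged, and the 75th percentile of each array (35.1 to 58.0) was subtracted after log2. One fit with lmFit and eBayes on all arrays gave 3 residual and 2.47 prior degrees of freedom. The fold limit of 2 follows the study's methods. RefSeq accessions named 30275 of 50599 probes. Folds given as "at least" set the bright group against, on each dim array, the higher of the lowest signal well above background and the probe's own.

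Members and lists were chosen with earlier results of these data known. All members are named, and from each wider list and comparison the 2 called probes with the largest rise and fall, besides counts of 5 or fewer. Proteins and target sites were not analysed here. The normexp alternative (offset 50) used the median signal of a spot.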

Additional observations from a re-analysis of the deposited data

How the results depend on the processing

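Against the scrambled control, 1 member was called with hsa-miR-205-5p, and this count was 0 with no filter on dim probes (CCN2 adjusted p = 0.0616 from limma), 0 by the methods' t-test after Benjamini-Hochberg adjustment (CCN2 adjusted p = 0.197, and 0 probes of the whole array), and 5 with the adjusted p and no limit on fold change. Leaving out 1 array gave 0 to 2 members with hsa-miR-205-5p, 0 in each case with hsa-miR-214-3p, and 0 to 1 between the precursors. Between the precursors the count of 1 became 0 with normexp (CCN2 log2 difference 0.88), 0 with scaling to the median (0.96), 0 with no filter (adjusted p = 0.0644) and 2 with no limit on fold change. CCN2 was higher with hsa-miR-205-5p under all 22 alternatives, by 1.03 to 1.72 against the control and 0.88 to 1.23 against hsa-miR-214-3p. With hsa-miR-214-3p 0 members were called under any alternative, and 0 to 5 had an unadjusted p under 0.05, where 10.2% to 37.9% of all probes did. No called value changed sign. In the wider lists normexp ended the calls against the control with hsa-miR-205-5p of NF2, WWC2, NUAK2 (0.86) and 1 PTPN14 probe, and between the precursors those of STK4 (−1.42), STK38 (−1.12), WWC2, TAOK2, VGLL3 (0.42), FOXF2 (−0.62) and 1 PTPN14 probe (0.34). Of the values of single named probes under the alternatives, 1540 kept their side of the threshold, 146 lost the call and 21 gained it. Most of the 1540 belong to probes not called in the main fit, which had no call to lose. The counts thus do not give the share of calls that held.

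AJUBA, ANKRD1, AMOTL2 and TEAD1 had an adjusted p of 0.05 or more against the control with hsa-miR-205-5p under scaling to the median (0.14, 0.297, 0.337 and 0.431) and under normexp (0.095, 0.111, 0.0862 and 0.145). With quantile normalization 3 members passed by adjusted p alone in place of 5 (19.4% of all probes). With the authors' log2 values 3 passed as well (19.3%), and with outlier spots kept 5 did (19.2%). Scaling to the median moved the median of all tested probes by −0.39 for hsa-miR-205-5p, −0.17 for hsa-miR-214-3p and −0.22 between the precursors, and raised the share of lower calls from 66.0% to 91.4%, from 63.0% to 84.7% and from 58.0% to 76.3%. Relative to the median of all probes, which by construction is the same in both scalings, the log2 fold change of CCN2 with hsa-miR-205-5p was 1.43 and that of ANKRD1 0.67.

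The replicate numbers of the labels were not taken as pairs, since the deviations of arrays with the same number correlated at 0.107, 0.00812 and −0.0482. With the replicate block the members called were the same in number, 1, 0 and 1. By adjusted p alone the 5 members with hsa-miR-205-5p became 1, CCN2, and AJUBA, ANKRD1, TEAD1 and AMOTL2 were at 0.0541, 0.0593, 0.0765 and 0.0817 from limma. Over all probes 494 calls for hsa-miR-214-3p became 0, with 1245 at an unadjusted p under 0.05 and 2-fold. The 4 arrays compared alone also gave 0 for hsa-miR-214-3p, with 1218 unadjusted. Since the 6 arrays share 1 slide, no slide block could be fitted. For the precursors against each other the 4 arrays alone gave 4188 calls. LATS1 was near background, and the gap between the control arrays limits what LATS2 shows against the control.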
